A study of Mus musculus with 2 samples.

Results

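MHC-II-high monocyte-derived cells are cells of the mouse lung that carry transcripts of blood monocytes together with those of MHC class II, the molecules that present peptides to CD4+ T cells. They were selected on measured counts of unique molecular identifiers (UMIs, each a captured RNA molecule). A cell was taken when it held a Csf1r UMI, at least 3 of the 5 monocyte genes Aif1, Plac8, Ms4a6c, Ms4a4c and Ccr2, and at least 6 UMIs of H2-Aa, H2-Ab1 and H2-Eb1 together. It could hold at most 1 of C1qa, C1qb and C1qc, at most 1 of Treml4, Cd300e, Eno3 and Ace, and no UMI of Cd3e, Cd79a, Flt3 or Ptprb. The rule found 441 such cells among 29837 cells that passed the filters. Of these, 354 came from the library labelled GFI1 KO and 87 from the library labelled GFI1 WT.

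Both libraries were made from live sorted lung cells of adult mice, by 3' droplet RNA sequencing with antibody tags read in the same cells. The mice were labelled GFI1 KO and GFI1 WT, on a C57BL6/J background, and the study describes its GFI1 KO mice as carrying a germline loss of this transcriptional repressor of blood cell development. As described, the loss was not limited to monocytes, and the 3' counts of Gfi1 did not check it. With 1 library per genotype, no test was possible, and genotype, mouse and library cannot be told apart in any difference given here. All intervals are 95% intervals that cover counting error only, and not the spread between cells or mice.

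Classical monocytes leave the blood through CCR2 and enter the lung, where some take up class II and resemble interstitial macrophages or dendritic cells. Class II chains are held together by the invariant chain CD74, loaded with peptide by the H2-DM molecules, and switched on by the transactivator CIITA. Conventional dendritic cells also carry class II but arise from another progenitor, under FLT3 signalling, and express Zbtb46.

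Class II promoters share conserved elements, the last of which, the Y box, is an inverted CCAAT box bound by NF-Y. The windows below are shown because class II sets the limits of these cells. They come from RefSeq, build GRCm38.p6, for 4 of 5 class II genes sought, with GATTGG (the inverted CCAAT box and 1 further base) in capitals.
H2-Aa: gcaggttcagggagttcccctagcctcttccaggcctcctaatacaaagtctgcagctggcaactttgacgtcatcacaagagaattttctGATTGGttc
H2-Eb1: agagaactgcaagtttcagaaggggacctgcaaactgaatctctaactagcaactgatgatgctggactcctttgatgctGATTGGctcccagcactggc
H2-DMb1: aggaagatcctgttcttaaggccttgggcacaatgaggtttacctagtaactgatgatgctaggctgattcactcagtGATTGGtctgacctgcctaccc
H2-DMb2: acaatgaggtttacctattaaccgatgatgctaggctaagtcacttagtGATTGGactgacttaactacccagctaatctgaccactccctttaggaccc
The H2-Aa window lies at chr17:34287864-34287963 on the minus strand. Those of H2-Eb1, H2-DMb1 and H2-DMb2 lie on the plus strand, at chr17:34305727-34305826, chr17:34153051-34153150 and chr17:34145109-34145208. The letters begin 49, 60, 62 and 91 bases before the start of H2-Aa, H2-Eb1, H2-DMb1 and H2-DMb2. On either strand, GATTGG was present in 5292 of 32851 RefSeq promoters of 300 bases (16.1%). On the gene's own strand, where the capitals above lie, it was in 8.71%, so a match is a description and not a site.

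The cells made up 3.37% of the library labelled KO (354 of 10495, Clopper-Pearson interval 3.04 to 3.74%) and 0.450% of the library labelled WT (87 of 19342, 0.360 to 0.555%). The ratio of these shares was 7.50. Among all monocytes that met the rule apart from its class II limit, the order was the opposite. A total of 354 of 3281 (10.8%, 9.75 to 11.9%) passed the limit in the library labelled KO, against 87 of 253 (34.4%, 28.6 to 40.6%) in the library labelled WT. Monocytes under the limit took 27.9% of the library labelled KO and 0.858% of the library labelled WT. Median depth was alike in the selected cells, at 10879 UMIs in the library labelled KO and 9512 in the library labelled WT, while over all filtered cells it was 11076 and 6217.

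**Figure D1:**
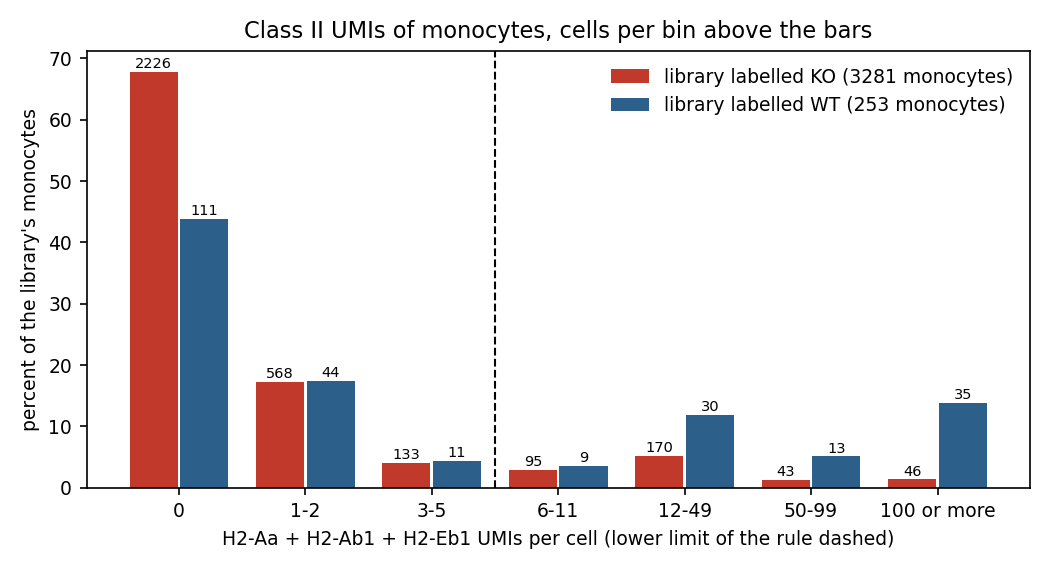
Summed H2-Aa, H2-Ab1 and H2-Eb1 UMIs per monocyte (x axis, in bins) against the percent of each library's monocytes (y axis), red for the library labelled KO and blue for the library labelled WT, with the number of cells above each bar and the limit of the rule dashed. No class II UMI was found in 67.8% of monocytes of the library labelled KO and 43.9% of the library labelled WT, and 100 UMIs or more were found in 46 and 35 cells.

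The cells were chosen by the 3 class II genes, whose UMIs are therefore a description. They gave a median of 22 UMIs per cell in the library labelled KO (quartiles 11 and 49.75, range 6 to 752) and 65 in the library labelled WT (quartiles 21 and 226.5, range 6 to 509). These ranges overlapped widely. Just inside the limit, with 6 to 11 class II UMIs, were 95 and 9 cells, and just outside, with 3 to 5, were 133 and 11. Cd74, which the rule did not use, was at 2177 and 2800 CPM (counts per 1000000 UMIs, summed over cells) just inside and 1293 and 2190 just outside in the libraries labelled KO and WT, so no gap separated the cells at the limit.

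The label was held against its 5 markers. Plac8 and H2-Ab1 belong to the rule. Tmem176b, a membrane protein of immature dendritic cells and macrophages, was detected in 95.2% and 81.6% of the cells in the libraries labelled KO and WT, and in 2.36% and 4.05% of B cells, which should lack it (median depth 4127 and 4719.5 UMIs). Its share in T cells was 20.9% and 6.93% (6787 and 6460 UMIs). Apoe, a lipid carrier abundant in macrophages, was detected in 92.1% and 73.6% of the cells, against 5.86% and 4.57% of T cells. After thinning each cell to 4000 UMIs, which left out 3 of 354 cells of the library labelled KO and 5 of 87 of the library labelled WT, Tmem176b remained in 85.5% and 63.4% and Apoe in 87.7% and 63.4%. Aif1, a calcium-binding protein of macrophages that the rule counts, was detected in 69.8% and 87.4%. Since the rule counts Plac8, H2-Ab1 and Aif1, of the 5 markers Tmem176b and Apoe alone are independent of it. Both were also common in monocytes under the class II limit, 2927 and 166 cells in the libraries labelled KO and WT. Apoe was detected in 2444 and 137 of these, and Tmem176b in 1909 and 89, so neither is particular to the selected cells.

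Protein tags were a readout the rule did not use. CD11b, the integrin of myeloid cells, had a median of 718 tag UMIs in the library labelled KO and 506 in the library labelled WT, beside 809 and 551 on monocytes under the class II limit, 656 and 356 on C1q macrophages and 536 and 356 on nonclassical monocytes. It was 125 and 33.5 on conventional dendritic cells and 4 and 2 on T cells. CD11c, an integrin that is high on dendritic cells, had medians of 7.5 and 14, against 7 and 9 on monocytes under the limit and 471 and 544.5 on dendritic cells. The medians hide an uneven spread. At least 100 CD11c tag UMIs were found on 14 of 354 cells in the library labelled KO (3.95%, 2.18 to 6.55%) and on 27 of 87 in the library labelled WT (31%, 21.5 to 41.9%), a limit chosen after the values were seen. Those cells had a median of 142 and 290 class II UMIs, the others 21 and 34. The mean CD11c tag was 32.57 and 320.2 UMIs per cell, and CD11c was 1 of 4 tags among 18 whose means differed at least 2-fold between the libraries. The others were Ly6G, CD117 and KLRG1, all with medians of 6 tag UMIs or fewer.

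A part of the cells also carried transcripts of dendritic cells, against the label. A UMI of Cd209a, Zbtb46, Xcr1 or Clec9a was found in 20 of 354 cells of the library labelled KO (5.65%, 3.48 to 8.59%) and 27 of 87 of the library labelled WT (31%, 21.5 to 41.9%). This division was also made after the values were seen. Cd209a, a C-type lectin of a dendritic cell subset, was in 4.24% and 25.3% of all selected cells and in 0% and 0.541% of T cells. In the library labelled WT, the cells with a dendritic gene had a median of 464 CD11c tag UMIs and the others 10.5, and in the library labelled KO 56.5 and 7. CD11b differed little, at 507 and 501.5 in the library labelled WT and 708 and 718 in the library labelled KO.

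The dendritic-gene cells held more Cd74 and less Apoe than the other selected cells in both libraries. Cd74 was at 18507 CPM in these cells and 5742 in the others of the library labelled KO, and at 23559 and 8647 in the library labelled WT. Apoe was at 1264.5 and 3173 in the library labelled KO and at 488.6 and 2395 in the library labelled WT. Tmem176a, a gene of the same family as Tmem176b, lay the other way, at 800.1 and 673.4 in the library labelled KO and 416.4 and 256 in the library labelled WT. Plac8 was at 659.1 CPM in the dendritic-gene cells of the library labelled WT and at 3569 in its other cells. Between the libraries, Cd74 in the cells without a dendritic gene was under 2-fold apart, and H2-DMb1 there was at 476.2 CPM in the library labelled KO and 387.1 in the library labelled WT.

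**Figure D2:**
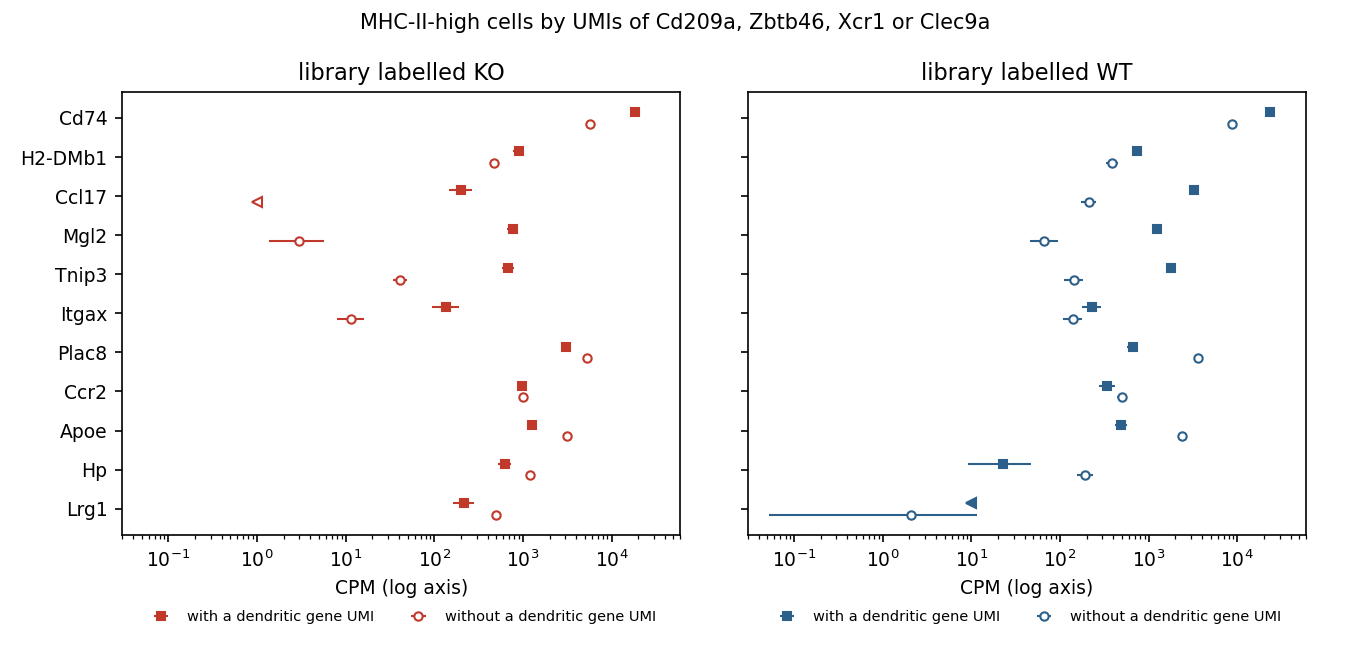
Summed level in CPM (x axis, log) of 11 genes (y axis) in selected cells with (filled squares) and without (open circles) a UMI of Cd209a, Zbtb46, Xcr1 or Clec9a, by library, with bars for 95% counting intervals and triangles at 3 UMIs where none was counted. Cd74, Ccl17, Mgl2 and Tnip3 lie to the right in cells with such a UMI, and Apoe, Hp and Plac8 in those without, in both libraries.

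Next, the cells were set beside monocytes under the class II limit, 2927 cells in the library labelled KO and 166 in the library labelled WT. A gene was counted when it was at least 2-fold apart in both libraries. Of 5724 genes with at least 50 UMIs in each library's comparison, 65 were higher (1.14%) and 20 lower (0.349%). The cells were chosen by their class II UMIs, so class II genes are a description.

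Mgl2, Ccl17 and Cd209a ranked highest, followed by Cd74, with Ciita and H2-DMb1 also among the 10 highest. Cd74 was at 6688 CPM against 177.3 in the library labelled KO and at 14437 against 405.3 in the library labelled WT, ratios of 37.73 and 35.62. H2-DMb1, a subunit of the peptide loader, had ratios of 9.42 and 10.5. Ciita, the class II transactivator, was at 84.5 against 5.75 and at 163 against 4.89. Of the 9 class II regulators, 6 were compared and only Ciita passed, with none lower. The subunits of NF-Y and RFX bind class II promoters in many cell types.

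Mgl2, Ccl17, Cd209a and Retnla came from few cells. Mgl2, a lectin of dendritic cells and macrophages, counted 195 UMIs in 11 cells of the library labelled KO and 411 in 21 cells of the library labelled WT. Ccl17 had 48 UMIs in 2 cells, 34 of them in 1 cell, and 1104 in 19 cells. Cd209a came from 15 and 22 cells. Dendritic-gene cells held 186 of the 195 and 379 of the 411 Mgl2 UMIs, and 48 of the 48 and 1003 of the 1104 Ccl17 UMIs. They held all Cd209a UMIs by definition. Retnla, a secreted protein of alternatively activated macrophages, rested on 1 cell with 120 UMIs in the library labelled KO and on 6 cells in the library labelled WT. Cd74 and H2-DMb1, in contrast, were counted in 354 and 328 cells of the library labelled KO and 87 and 76 of the library labelled WT.

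Lower genes included those of classical monocytes and granulocytes. Vcan, a matrix proteoglycan of classical monocytes, was at 353.8 CPM against 763.1 in the library labelled KO and 77.66 against 627.9 in the library labelled WT, and F13a1, coagulation factor XIII A, at 436.5 against 891.2 and 295.4 against 923.9. Mmp8, a collagenase of neutrophil granules, had ratios of 0.278 and 0.147. Of 11 classical monocyte genes compared, 3 were lower in both libraries and none higher.

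**Figure D3:**
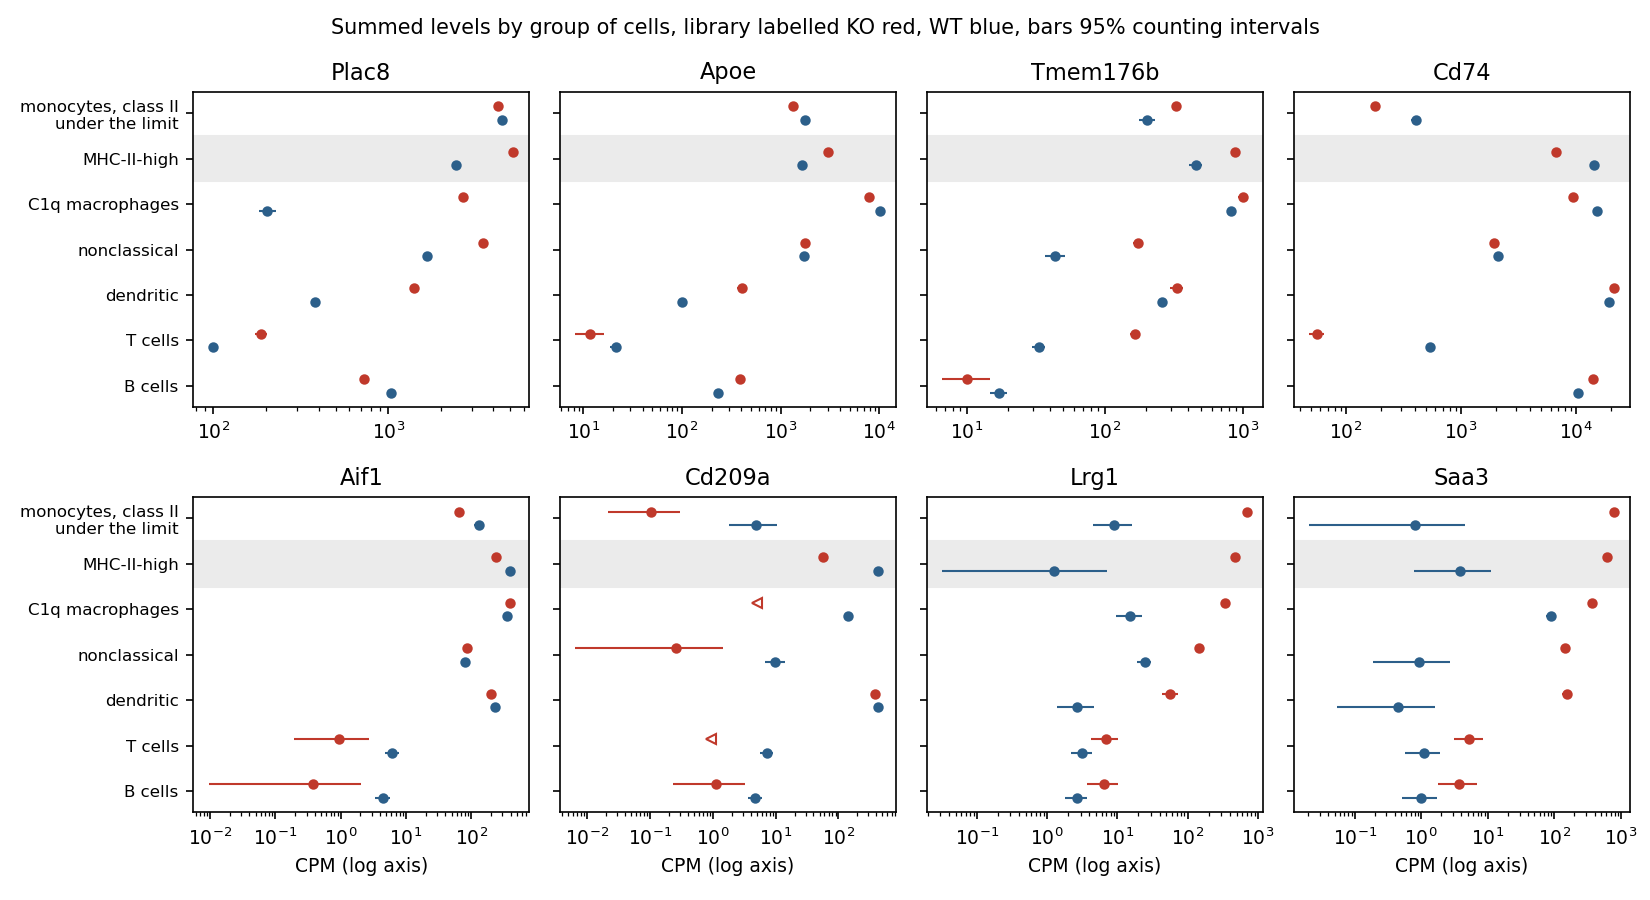
Summed level in CPM (x axes, log) of 8 genes in 7 groups of cells (y axis), red for the library labelled KO and blue for the library labelled WT, with bars for 95% counting intervals, open triangles at 3 UMIs where none was counted and the selected cells shaded. In the selected cells Plac8 is within 2-fold of its level in monocytes under the limit, Cd74 near that of C1q macrophages, and Lrg1 and Saa3 lie far apart between the libraries.

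Against C1q macrophages (61 and 178 cells), a comparison group that had to hold at least 2 C1q genes, the selected cells had little of the resident macrophage genes. Pf4, a chemokine of resident macrophages and platelets, was at 0.615 CPM against 528.7 in the library labelled KO and at 7.64 against 1490.2 in the library labelled WT. Stab1, a scavenger receptor, was at 7.38 against 157.6 and 1.27 against 392.5. Folr2, a folate receptor of perivascular macrophages, was at 2.15 against 77.95 in the library labelled KO, and no UMI was counted in the library labelled WT, a ratio of at most 0.0125 to the 304.8 of its C1q macrophages. Ly6i, a Ly6 family surface protein, was among the genes that were higher, with ratios of 7.74 and 6.81. Apoe was lower than in C1q macrophages in both libraries, at 3031 against 7822 and at 1655 against 10201.

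Against conventional dendritic cells (95 and 386 cells), the selected cells carried macrophage and monocyte genes. That group had to hold a Flt3 UMI, a UMI of Cd209a, Zbtb46, Xcr1 or Clec9a, and at least 6 class II UMIs. Apoe was at 3031 CPM against 401.7 in the library labelled KO and at 1655 against 99.27 in the library labelled WT. Lyz2, lysozyme, had ratios of 5.05 and 6.44, and Msr1, a macrophage scavenger receptor, of 7.28 and 54.8. Fscn1, an actin bundler of mature dendritic cells, had no UMI in the selected cells of either library and 112 and 1210 in the dendritic cells. Ccr7, the receptor that leads dendritic cells to lymph nodes, was at 5.23 against 229.5 and 15.28 against 513.7. Clec9a, a receptor of cross-presenting dendritic cells, was at 0.922 against 222.6 and 5.09 against 191.4. It helped to define the dendritic cells, so its difference is a description.

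The last comparison set the selected cells of the library labelled KO against those of the library labelled WT. Of 7403 genes with at least 50 UMIs over both, 322 (4.35%) were at least 2-fold higher and 485 (6.55%) at least 2-fold lower in the library labelled KO, with a median log2 ratio of 0.004. The balance turned after thinning, with 191 higher (4.65%) and 103 lower (2.51%) of 4111, and in cells with 6 to 49 class II UMIs, with 448 higher (7.12%) and 303 lower (4.82%) of 6288. Gfi1 itself does not check the labels. It was at 3.60 CPM over all cells of the library labelled KO and 3.47 over those of the library labelled WT, which 3' counts cannot tie to the deleted part. In the selected cells it had 5 UMIs in the library labelled KO and 0 in the library labelled WT, where 3 UMIs are 3.82 CPM.

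Lrg1, Saa3 and Hp, secreted proteins of the acute phase, were higher in the library labelled KO. Lrg1, a secreted glycoprotein of neutrophils and liver, had 1534 UMIs in 265 cells (471.6 CPM) in the library labelled KO and 1 UMI in the library labelled WT (1.27 CPM), a ratio of 370.4 (66.39 to 14641). That 1 UMI was in a cell with 50 class II UMIs or more, and in cells with 6 to 49 class II UMIs, where the library labelled WT had 0, the log2 ratio of 5.61 is a lower bound set by 3 UMIs. After thinning to 4000 UMIs the log2 ratio of Lrg1 was 4.96, in place of 8.53 in the main setting. Thinning can leave the library labelled WT at most its 1 UMI, and a count of 0 is set to 3 UMIs. The lower value therefore does not measure an effect of depth. Saa3, serum amyloid A3, had 1994 UMIs in 168 cells (613 CPM) and 3 UMIs (3.82 CPM), a ratio of 160.5 (54.84 to 779). Hp, haptoglobin, was counted in 339 and 41 cells, at 1165 (1128 to 1203) and 126 (102.4 to 153.4) CPM, a ratio of 9.24 (7.57 to 11.4). These genes were spread over many cells of the library labelled KO. Of the 10 genes of the acute phase list, 7 were higher and none lower, with a median log2 ratio of 1.49. The list also holds genes of membrane proteins, and Ifitm2 and Ly6a2 among the 7 are such genes. Lrg1 was found in 2.54% and 1.03% of T cells and Saa3 in 2.54% and 0.590%, far below the 74.9% and 47.5% of the selected cells in the library labelled KO.

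The difference was not limited to the selected cells. In monocytes under the class II limit Lrg1 was at 705.6 CPM in the library labelled KO and 8.97 in the library labelled WT, and Saa3 at 787.7 and 0.816. Hp was there at 1755 and 732.3, a ratio of 2.40. In nonclassical monocytes, conventional dendritic cells and all other cells, the ratios were 155.3, 345.3 and 193.6 for Saa3, 4.95, 11.58 and 9.82 for Hp, and 6.02, 21.16 and 15.43 for Lrg1. In C1q macrophages the ratio was 4.12 for Saa3, at 360.9 and 87.7 CPM, 16.5 for Hp and 22.8 for Lrg1. Among the genes past 2-fold in the selected cells, 75 of 322 higher genes (23.3%) and 182 of 464 lower genes that could be compared (39.2%) were also past it in those monocytes, where 2.68% and 4.33% of 7382 genes were.

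Of 6 genes compared from the granule list, Lcn2, Ltb4r1, Lyz2, Mmp8 and Prtn3 were higher and none lower. Lyz2, at 21656 and 10784 CPM, is also a main gene of monocytes and macrophages, and Ltb4r1 encodes a leukotriene receptor. Prtn3, proteinase 3, had 345 UMIs in 154 cells of the library labelled KO and 6 in 6 cells of the library labelled WT, a ratio of 13.88 (6.31 to 38.1). Mmp8 was at 100.5 and 14 CPM, a ratio of 7.18. Lcn2, lipocalin 2, had 386 UMIs in 99 cells and 2 UMIs in 1 cell, a ratio of 46.61 (12.81 to 386.2). These differences were not particular to the selected cells. In monocytes under the class II limit the ratios of Prtn3, Mmp8 and Lcn2 were 10.58, 3.79 and 45.02. In all other cells they were 119.7, 5.79 and 10.29, while Lcn2 had a ratio of 0.665 in C1q macrophages. Of 15 classical monocyte genes, 4 of which the rule uses, 6 were higher and none lower. Vcan was at 353.8 and 77.66 CPM, Cd14, the lipopolysaccharide co-receptor, at 1263 and 566.5, and Ccr2, a rule gene, at 993.3 and 439.2. Without the dendritic-gene cells, Ccr2 was at 995.2 and 501.6 and Plac8 at 5333 and 3569, both under 2-fold apart. Ly6c2, the classical monocyte surface marker, was at 417.2 and 481.2. S100a8, a calgranulin of neutrophils, had 2181 UMIs, 936 of them in 1 cell, and 194 in the library labelled WT, 184 of them in 1 cell, so its ratio of 2.71 rests on few cells. The part of admixed neutrophil RNA in these values was not tested.

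Of 17 Fc receptor and lectin genes compared, 2 were higher and 3 lower, and of 9 interstitial macrophage genes 3 were higher and 2 lower. Fcgr1 and Fcgr4, activating receptors for IgG, were at 194 and 70.0 CPM and at 156.5 and 50.9. Trem2, a lipid receptor, was at 113.1 and 56.0. Mrc1, the mannose receptor, and Cd36, a fatty acid transporter, were lower, at 56.9 and 406.1 and at 17.2 and 216.4. Of 16 lipid handling genes compared, 1 was higher and 8 were lower. Alveolar macrophage genes were lower beside them, 9 of 10 compared, with Lpl on both lists and Mrc1 among the 9, and the part of alveolar macrophage RNA in the lipid genes was not tested. Tmem176a, a paralogue of Tmem176b, was at 682.8 and 318.3, a ratio of 2.15, and of 10 Ms4a and Tmem176 genes 3 were higher and none lower.

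Class II genes were divided between the libraries, while 4 of 7 costimulation and checkpoint genes were lower in the library labelled KO and none higher. Cd74 was at 6688 (6600 to 6778) and 14437 (14172 to 14705) CPM, a ratio of 0.463, and was counted in all 354 and 87 cells. Its log2 ratio of -1.11 was under 2-fold with cells weighted alike (-0.98), with a class II limit of 12 UMIs (-0.90), after thinning (-0.59), without granule-gene cells (-0.66), without dendritic-gene cells (-0.59) and in cells with 6 to 49 class II UMIs (-0.48). Of 10 class II genes compared, 5 were lower, of which H2-Aa, H2-Ab1 and H2-Eb1 belong to the rule and Cd74 and H2-DMb2 do not. Ifi30, a lysosomal thiol reductase, was higher at 1610 and 798.2. H2-DMb1 was level, at 507.3 and 523.2, a ratio of 0.969 (0.870 to 1.08), whereas its neighbour H2-DMb2 was at 7.69 and 122.2. Dendritic-gene cells held 17 of 25 H2-DMb2 UMIs in the library labelled KO and 93 of 96 in the library labelled WT, and the other cells were at 2.66 and 6.24 CPM. H2-DMb1 and H2-DMb2 are close copies, so their separate counts are uncertain. Cd83, a stabiliser of class II and CD86 at the surface, was at 200.7 and 977.7, a ratio of 0.205 (0.185 to 0.228), and Cd80 and Cd86, the ligands of CD28, at 279.1 and 473.6 and at 735.4 and 861.9. Conventional dendritic cell genes were lower beside the costimulation list, 8 of 10 compared. Dendritic-gene cells were 5.65% and 31% of the selected cells, and the costimulation list without them is not given here.

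Several chemokines were among the lowest genes, and they came from few cells of the library labelled WT. Ccl17, a ligand of CCR4, had 48 UMIs in 2 cells of the library labelled KO and 1104 in 19 cells of the library labelled WT, 535 of them in 1 cell, at 14.76 and 1405.5 CPM. Ccl22, another ligand of CCR4, had 8 UMIs in 3 cells and 51 in 10 cells. Ccl24 had 5 UMIs in 5 cells and 177 in 6 cells, 125 of them in 1 cell, and 176 of the 177 were in cells without a dendritic gene. In the library labelled WT, Ccl24 was at 7.33 CPM in conventional dendritic cells and 229.6 in C1q macrophages. Ccl7, a CCR2 ligand, rested in the library labelled WT on 1 cell with 44 UMIs and is no measure of the population. Lower levels in the library labelled KO were not limited to the selected cells. Over all other cells the ratios were 0.0712 for Ccl17, 0.0899 for Ccl22, 0.0542 for Ccl24 and 0.286 for Ccl7. In conventional dendritic cells Ccl17 and Ccl22 had ratios of 0.167 and 0.268. Monocytes under the limit in the library labelled WT held at most 2 UMIs of each, so no ratio is given for them. Of 10 conventional dendritic cell genes compared 8 were lower and none higher, among them Tnip3 at 89.15 and 786.8, Mgl2 at 59.95 and 523.2, and Itgax, which encodes CD11c, at 20.9 and 174.4. With the dendritic-gene cells left out, 321 genes in place of 485 were lower. Among the chemokines, Ccl22 then had 2 UMIs in the library labelled KO and 1 in the library labelled WT, too few for a direction. The log2 ratios of Ccl17 and Ccl24 went from -6.57 to -7.72 and from -7.20 to -7.79. No Ccl17 UMI was then left in the library labelled KO, so its value is set by the bound of 3 UMIs.

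**Figure D4:**
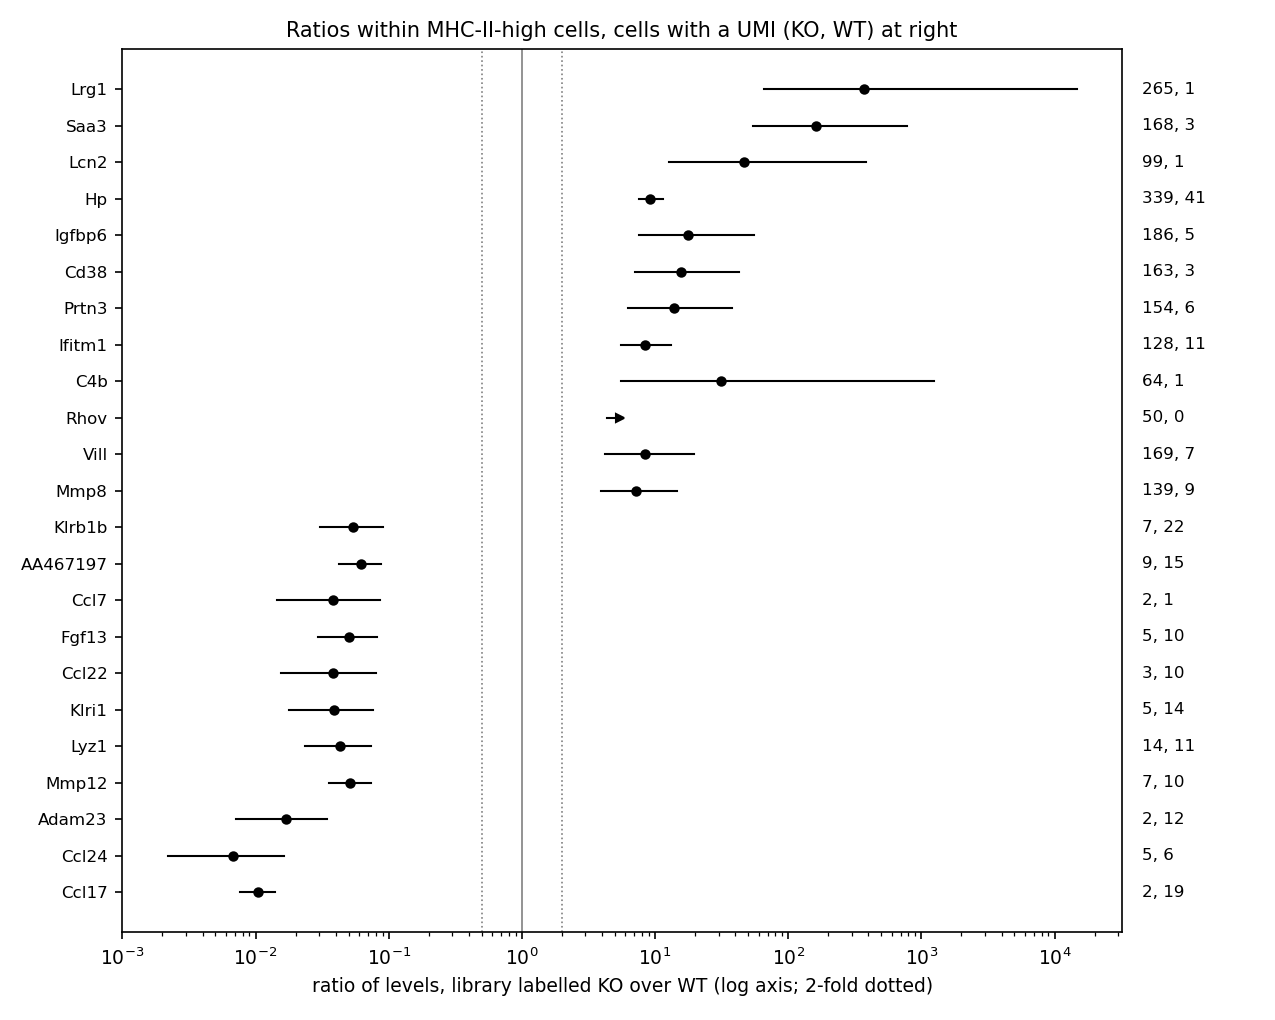
Ratio of levels in the selected cells, library labelled KO over library labelled WT (x axis, log, 2-fold dotted), for the 12 highest and 11 of the 12 lowest genes (y axis), with bars for 95% counting intervals, a triangle for a lower bound, and the cells with a UMI in each library at the right. The genes higher in the library labelled KO were counted in 50 to 339 of its cells, and the genes lower in it in 1 to 22 cells of the library labelled WT.

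Several lists are given as counts, to be read beside the 4.35% higher and 6.55% lower of all genes compared. Of 14 interferon gamma response genes 1 was higher and none lower, and of 11 type I interferon response genes 2 were lower and none higher. Of 15 inflammatory activation genes, Cxcl1 was higher and Il1a, Il1rn, Il6 and Tnfaip3 were lower, with a median log2 ratio of -0.39. Il6, a cytokine, was at 13.8 and 68.8 CPM. Il1b, an inflammatory cytokine, was at 5002 and 3836 CPM and Cxcl2, a chemokine for neutrophils, at 1331 and 1097, both under 2-fold apart. Of 14 growth factor receptors none was past 2-fold, and of 25 myeloid transcription factors 2 were higher and 2 lower. Alveolar macrophage and cell cycle lists lay lower in the library labelled KO. Of 10 alveolar macrophage genes 9 were lower and none higher, with a median log2 ratio of -2.55, and Plet1, a surface protein of alveolar macrophages, came from 16 and 17 cells with 88 and 247 UMIs. Chil3, the most abundant of that list and also a monocyte gene, was at 2713 and 2373. Of 5 cell cycle genes 4 were lower and none higher, with a median log2 ratio of -3.23. Top2a, a topoisomerase of dividing cells, had 16 UMIs in 11 cells and 52 UMIs in 6 cells, and 47 of the 52 were in dendritic-gene cells, as were 44 of 51 Mki67 UMIs of the library labelled WT. Without those cells, Top2a was at 4.98 and 10.4 CPM and Mki67 at 5.31 and 14.6, on 5 and 7 UMIs in the library labelled WT.

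The T cell and red cell lists had few UMIs, whereas some genes of the B cell and epithelial lists were present. The 7 T cell genes summed to 8.30 and 20.4 CPM and the 5 red cell genes to 3.07 and 5.09. The 7 B cell genes summed to 128.5 and 95.5, mostly Ighm, with Cd79a at 0 by the rule. Scgb1a1, a secreted protein of club cells, was found in 35 of 354 and 44 of 87 cells, with at most 3 and 8 UMIs in a cell, at 12.9 and 106.9 CPM. The 7 epithelial genes summed to 194.6 and 217.7, and Hopx, a homeodomain protein, was at 176.5 and 72.6. Hopx was also found in 2590 of 2927 and 85 of 166 monocytes under the class II limit, and Ighm in 1581 and 80. Neither was therefore particular to the selected cells. The part of free RNA in other values was not tested. Scrublet, a doublet caller, marked 10 (2.82%) and 8 (9.2%) of the selected cells, against 3.30% and 5.92% of all cells of the libraries labelled KO and WT.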

How the data were processed

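The authors deposited matrices of unscaled UMI counts for each called cell, over genes and antibody tags. Per the file headers and processing notes these came from Cell Ranger 9.0.1, with build GRCm39 (mm39), and the removal of free RNA or doublets is not given in the sources used here. The files hold 33696 genes and 18 tags, with 116825535 gene UMIs in 10700 cells of the library labelled KO and 162599284 in 19515 of the library labelled WT. Filtering for at least 500 UMIs, at least 200 genes and at most 20% mitochondrial UMIs kept 10495 and 19342 cells. The study's methods describe further samples, and 1 library per genotype was analysed here. The libraries shared 74 barcodes among filtered cells. None was a selected cell in both, and 4 and 1 selected cells matched a filtered cell of the other library.

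Counts were summed over cells per library and scaled to counts per 1000000 UMIs (CPM), without 9548 ribosomal, mitochondrial and Gm- genes. Levels had exact Poisson intervals, ratios exact conditional binomial intervals and shares Clopper-Pearson intervals. Where no UMI was counted, 3 UMIs gave the bound. Python 3.11.15, numpy 2.4.6, scipy 1.17.1, pandas 2.3.3 and scanpy 1.11.5 (Scrublet) were used. The ratio intervals were checked only on simulated Poisson counts, the model they assume, which hold no spread between cells. No p-value was computed, since cells are not replicates.

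The genes named were the 12 highest and 12 lowest between the libraries and the 10 highest and 10 lowest against each comparison group, by the interval bound nearer to 1, and members of 33 gene lists. Not all are printed, and some are not reported here. Members and lists were chosen with earlier results of these data known. Alternatives covered thinning to 4000 UMIs, class II limits, UMI minimums, scaling, doublets and cells with granule genes. Leaving out dendritic-gene cells, cells over 49 class II UMIs or the top cell of each gene, and the share of monocytes, were added after seeing the data. Promoters were read from RefSeq tables of GRCm38.p6, and no coordinate of the deposited files was used.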

Additional observations from a re-analysis of the deposited data

Results flagged for a closer look

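A pair of genes lay at least 2-fold apart in opposite directions in the 2 libraries when the selected cells were set against monocytes under the class II limit, and the difference between the libraries was not tested. Retnlg, a secreted protein of neutrophils, had a log2 ratio of 2.03 in the library labelled KO and -4.28 in the library labelled WT. In the library labelled KO it rested on 28 UMIs in 4 cells, 24 of them in 1 cell, and in the monocytes of the library labelled WT on 121 UMIs in 11 cells. ENSMUSG00000121360, given without another name, had log2 ratios of 2.04 and -3.53. It had 50 UMIs in 3 cells of the library labelled KO and none in the selected cells of the library labelled WT, so the second value is set by the bound of 3 UMIs.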

How the results depend on the processing

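The direction of the share of cells depended on the denominator. The ratio of shares of all cells, 7.50, was 10.3 without dendritic-gene cells and ranged from 6.12 to 9.16 under the other settings, but as a share of monocytes it was 0.314. Of 7403 genes compared, 322 were higher and 485 lower in the library labelled KO. These became 661 and 1168 of 10193 with at least 10 UMIs, 124 and 140 of 3800 with at least 200, and 170 and 344 of 5688 without granule-gene cells. Higher genes outnumbered lower ones after thinning (191 and 103 of 4111, in the 286 and 71 cells that met the rule on thinned counts), without dendritic-gene cells (341 and 321 of 6907), with 6 to 49 class II UMIs (448 and 303 of 6288) and without the top cell of each gene (518 and 402 of 7403). The last setting takes 1 cell per gene from each library, a larger part of 87 cells than of 354. By construction it lowers sums more in the library labelled WT, so its balance decides nothing. Against monocytes under the limit, 65 and 20 genes became 17 and 11 with at least 200 UMIs. Of 450 alternative values for 45 genes, 288 stayed within the spread used, 152 moved and 10 reversed. As log2 ratios, Lcn2 and Prtn3 both gave -0.88, Chil3 -0.20 and Retnla 0.12 without granule-gene cells, a set defined by Lcn2 and Prtn3 themselves. That setting left no UMI of Lcn2 or Prtn3 in either library. Their shared value is set by the bound of 3 UMIs in both and is no measured reversal. Mmp12 gave 0.82, Cxcl9 -0.11 and Fn1 0.03 after thinning. Chil3 gave -0.17 and Thbs1 -0.08 without dendritic-gene cells, and Thbs1 -0.16 with 6 to 49 class II UMIs. Apart from these constructions, the cause was not tested. No paired analysis was possible because each genotype had 1 library. With 87 cells, the library labelled WT limits the depth, and genes counted in few of its cells are the least certain.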
